A study of Mus musculus with 6 samples.

Results

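Chaperones of the heat shock protein families, their J-domain cochaperones and the cytosolic chaperonin were compared between GFP-negative and GFP-positive DN4 thymocytes. Members were all genes of the 6-library table whose symbols begin with Hspa, Hspb, Hspd, Hspe, Hsph, Hsp90, Dnaja, Dnajb, Dnajc or Cct2 to Cct8, plus Tcp1, without pseudogenes labelled -ps. This gave 84 of 41386 genes, of which 66 reached a mean of 1 FPKM (sequenced fragments scaled to gene length and to library size) and were tested. The cells came from adult C57BL/6 mice of genotype Gata3(g/+), with no treatment named, and were divided by GFP, which is read from a Gata3 reporter allele that both groups carry. Each group held 3 libraries of rRNA-depleted total RNA from DN4 cells, the last thymocyte stage without surface CD4 and CD8. The labels do not say whether libraries of a group came from separate or pooled mice, so p-values measure the spread between libraries, which may be technical. The sources used here do not give the read depth, and FPKM values allow no counting interval.

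Heat shock proteins bind unfolded segments of other proteins and help them to fold. HSP70 proteins hold and release their clients in a cycle of ATP hydrolysis and nucleotide exchange. J proteins (the Dnaj genes) stimulate the hydrolysis, and nucleotide exchange factors promote the exchange. HSP90 completes the folding of kinases and receptors, and chaperonins enclose a client in a barrel: HSP60 with its lid HSP10 in mitochondria, and the ring of TCP1 and CCT subunits in the cytosol, which folds actin and tubulin. Some members are induced by heat through the transcription factor HSF1, while others are made in every growing cell.

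Most members of the HSP70, HSP90 and chaperonin families that changed were higher in GFP-positive cells, while called J proteins went both ways. Of the 66 tested members, 27 rose and 13 fell at an adjusted p of 0.05 (limma on log2(FPKM + 0.5), Benjamini-Hochberg over all 11465 genes tested). Of all genes tested, 24.4% rose and 29.8% fell, 54.2% in either direction, against 40.9% and 19.7% of the tested members and 60.6% in all. Of the 29 tested members that are not J proteins, 18 rose and 2 fell, with a median log2 fold change of 0.88. Of the 37 tested J proteins, 9 rose and 11 fell, with a median of -0.20. These shares of the J proteins are close to those of all genes tested. The median was 0.18 over all tested members and -0.08 over all genes tested. For 42 tested members the groups were fully separated by library values (63.6%), close to the 63.8% of all genes tested. The authors' deposited table called 41 members at a q of 0.05, with 49.3% of the genes its authors tested called, and 37 of these were among the 40 called here.

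**Figure D1:**
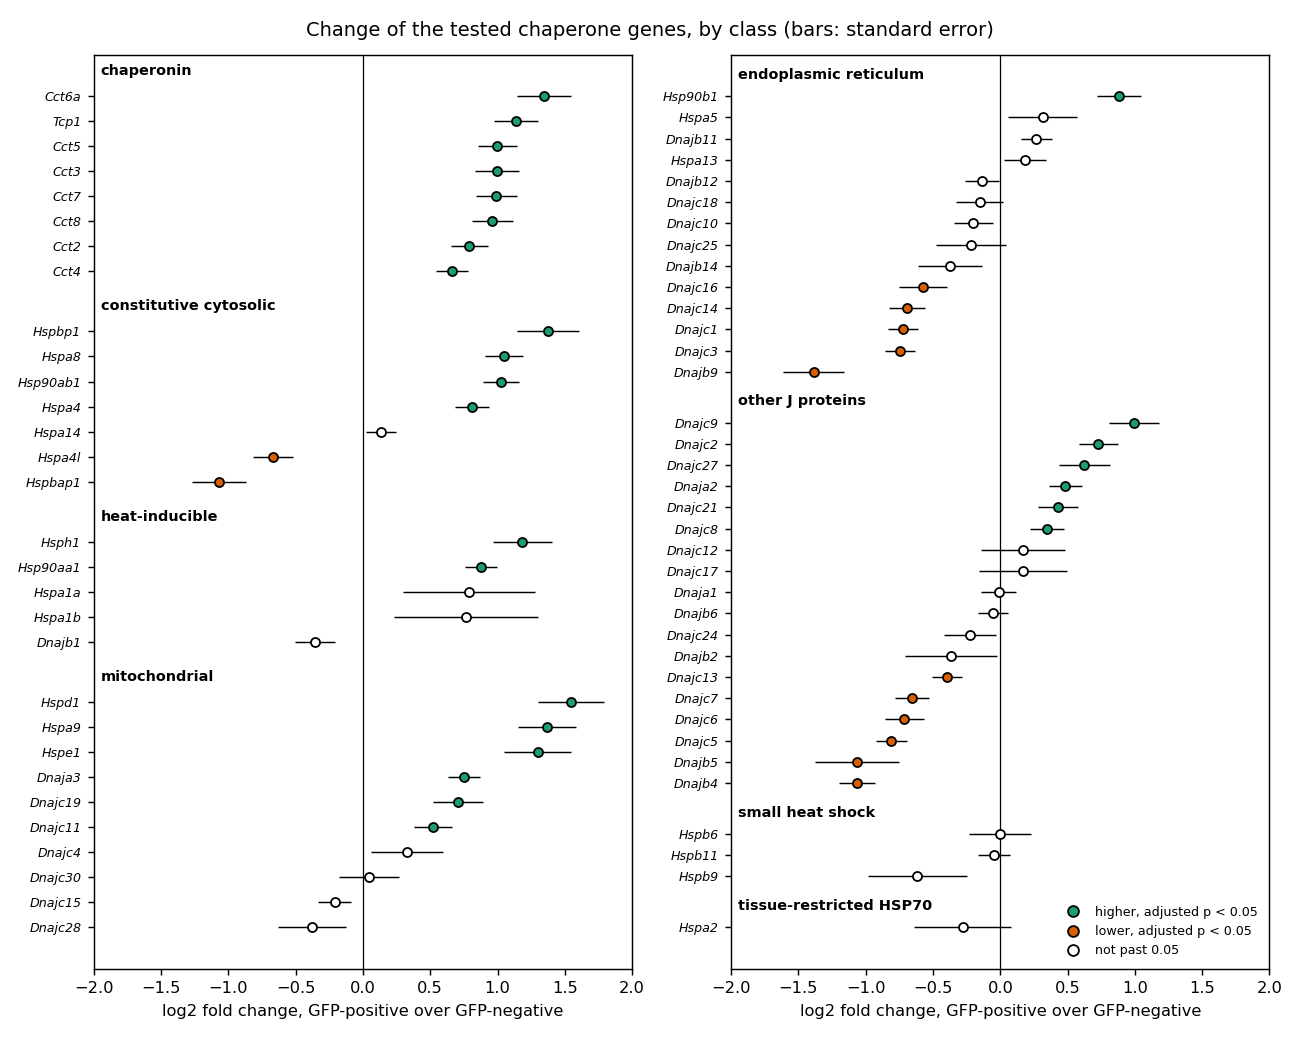
Log2 fold change (x axis, GFP-positive over GFP-negative, 3 libraries each) of the 66 tested members by class, with standard errors as bars. All 8 tested chaperonin subunits lie above 0.66, whereas the J proteins outside organelles spread from -1.07 to 0.99.

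The libraries carried thymocyte RNA, and few transcripts of the other cell types given here. All 7 T lineage markers were present, with summed levels of 1821 to 2134 FPKM in GFP-negative and 1199 to 1295 FPKM in GFP-positive cells. Sums of the dendritic, myeloid, NK cell and thymic epithelial lists stayed at or below 2.89 FPKM in every library, and Siglech, Cd14, Foxn1 and Krt5 were listed at 0 throughout. The myeloid sum was 2.01 to 2.57 FPKM in GFP-negative and 0.156 to 0.280 FPKM in GFP-positive cells, of which Itgam gave 1.52 to 2.37 and 0 to 0.0515 FPKM. Epcam, of the thymic epithelial list, stood at 1.41 to 2.84 FPKM over the 6 libraries. The 5 markers of the double-positive stage summed to 1889 to 2842 FPKM in GFP-negative and 278 to 291 FPKM in GFP-positive cells. The 4 gamma-delta markers summed to 12.4 to 35.2 and 102 to 113 FPKM. In such bulk samples, fewer cells of a type and less RNA per cell cannot be told apart. The 8 proliferation genes, all higher in GFP-positive cells, had sums of 204, 226 and 382 FPKM without GFP and of 783, 831 and 842 FPKM with GFP, in order of library number. Their part in the chaperone differences was not tested.

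The promoters shown belong to Hspe1, whose window overlaps one of Hspd1, the most increased member, and to 3 genes of the endoplasmic reticulum that share a stress element but differed in their calls. The sequences are RefSeq windows (GRCm38.p6) from 250 bases before to 50 after the start site, which were found for 69 of the 84 members. Both strands were searched for 3 motifs. They were a short heat shock element of 2 inverted units, GAANNTTC, the 3-unit element, in which NNGAA follows the short form, and the endoplasmic reticulum stress element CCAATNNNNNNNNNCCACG. Capitals mark the matches of the 3-unit heat shock element in the first sequence and of the stress element in the other 3, in whichever strand it lies.
Hspe1, chr1:55087898-55088197, plus strand: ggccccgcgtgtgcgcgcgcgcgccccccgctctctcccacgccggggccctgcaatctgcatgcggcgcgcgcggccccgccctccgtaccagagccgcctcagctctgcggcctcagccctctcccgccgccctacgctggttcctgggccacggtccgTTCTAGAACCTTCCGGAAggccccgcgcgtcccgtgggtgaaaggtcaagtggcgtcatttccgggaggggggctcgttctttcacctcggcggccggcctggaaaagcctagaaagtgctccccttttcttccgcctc
Hspa5, chr2:34771840-34772139, plus strand: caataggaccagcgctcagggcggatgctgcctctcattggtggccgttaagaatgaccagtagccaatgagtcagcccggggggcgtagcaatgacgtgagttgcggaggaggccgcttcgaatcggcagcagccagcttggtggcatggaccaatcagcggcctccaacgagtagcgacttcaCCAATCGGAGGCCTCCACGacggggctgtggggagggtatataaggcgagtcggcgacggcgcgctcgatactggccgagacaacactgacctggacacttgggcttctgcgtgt
Hsp90b1, chr10:86705395-86705694, minus strand: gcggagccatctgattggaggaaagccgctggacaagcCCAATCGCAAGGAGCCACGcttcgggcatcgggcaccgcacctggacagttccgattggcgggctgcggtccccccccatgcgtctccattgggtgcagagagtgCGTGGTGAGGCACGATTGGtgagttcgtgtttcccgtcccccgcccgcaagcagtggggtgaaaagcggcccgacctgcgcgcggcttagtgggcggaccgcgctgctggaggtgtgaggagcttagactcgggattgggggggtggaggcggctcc
Dnajc3, chr14:118937682-118937981, plus strand: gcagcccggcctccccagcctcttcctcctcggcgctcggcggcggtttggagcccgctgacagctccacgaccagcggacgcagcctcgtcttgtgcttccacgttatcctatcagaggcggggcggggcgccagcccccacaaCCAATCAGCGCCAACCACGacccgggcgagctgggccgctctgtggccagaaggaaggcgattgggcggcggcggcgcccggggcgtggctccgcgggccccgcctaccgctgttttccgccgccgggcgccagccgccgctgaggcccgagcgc
The 3-unit heat shock element was found in windows of Hspd1, Hspe1, Hsph1 and Dnajb6, and in 0.608% of all 32544 promoter windows. In Hspe1, 2 overlapping matches made a run of 18 bases, and 285 bases of this window lie also in a window of Hspd1, which is read the other way. The stress element was found in Hspa5, Hsp90b1 (2 matches) and Dnajc3, and in 0.12% of all windows. The shorter form was found in 16 members and in 7.89% of all windows. A match describes the letters only.

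Transcripts of the abundant cytosolic HSP70 and HSP90 proteins were higher in GFP-positive cells. Hspa8, the constitutive HSP70 that is made in unstressed cells (ENSMUSG00000015656, chr9:40800984-40810087 of mm10), was measured in GFP-negative libraries 1 to 3 at 382, 491 and 452 FPKM, and in GFP-positive ones at 818, 989 and 925 FPKM. Every GFP-positive library lay above every GFP-negative library. The means were 442 ± 55.7 and 911 ± 86.2 FPKM (SD, n = 3 each), a 2.06-fold difference. On the log2 scale this was 1.05 ± 0.14 (standard error), with an adjusted p of 0.000454 by limma. By mean FPKM over the 6 libraries it ranked 38 among 21385 protein-coding genes.

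Hsp90ab1, the constitutive HSP90 (chr17:45567775-45573271), ranked next at 39. Its levels were 386, 452 and 490 FPKM in GFP-negative and 813, 932 and 955 FPKM in GFP-positive libraries, again without overlap (2.03-fold, log2 fold change 1.03 ± 0.14, adjusted p = 0.000441). Its heat-inducible paralog Hsp90aa1 moved with it, from 189, 208 and 205 to 343, 408 and 359 FPKM (1.84-fold, log2 fold change 0.88 ± 0.12, adjusted p = 0.000479). The ratio of Hsp90ab1 to Hsp90aa1 was 2.05 to 2.39 in GFP-negative and 2.28 to 2.66 in GFP-positive libraries, so the groups overlapped in the balance of the isoforms. The ratio of Hsp90ab1 to Hspa8 also overlapped, at 0.920 to 1.09 and 0.942 to 1.03.
Under quantile normalization the differences of these genes at the top of the range were smaller. The log2 fold change was then 0.39 for Hspa8 (adjusted p = 0.0505, no longer called), 0.34 for Hsp90ab1 and 0.41 for Hsp90aa1.

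HSP70 exchange factors and other constitutive members did not all move in the same direction. Hspa4, an HSP110-type exchange factor, rose from 32.3, 37.1 and 43.2 to 62.7, 68.9 and 66.0 FPKM (1.75-fold, log2 fold change 0.81 ± 0.13, adjusted p = 0.000932). Hsph1, the heat-inducible HSP110, rose from 14.8, 26.9 and 25.8 to 47.1, 56.6 and 47.1 FPKM (2.23-fold, log2 fold change 1.19 ± 0.22, adjusted p = 0.0022). Hspbp1, which helps HSP70 to release nucleotide, had the largest increase of the cytosolic members other than J proteins, from 5.74, 6.71 and 11.6 to 18.7, 21.4 and 22.0 FPKM (2.58-fold, log2 fold change 1.37 ± 0.23, adjusted p = 0.00129). All 3 were without overlap between groups. Hspa4l, the close relative of Hspa4, went the other way, from 17.7, 19.5 and 14.3 to 9.59, 11.7 and 10.5 FPKM, 1.62-fold higher in GFP-negative cells (log2 fold change -0.67, adjusted p = 0.00468). Hspbap1, a protein named for its binding to HSPB1, fell as well, from 3.71 ± 0.248 to 1.52 ± 0.332 FPKM (SD, n = 3 each) with no overlap (log2 fold change -1.07, adjusted p = 0.00218). Hspa14, an HSP70 that works at ribosomes, stood at 42.5 ± 3.33 and 46.6 ± 2.20 FPKM and did not pass (adjusted p = 0.325).

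**Figure D2:**
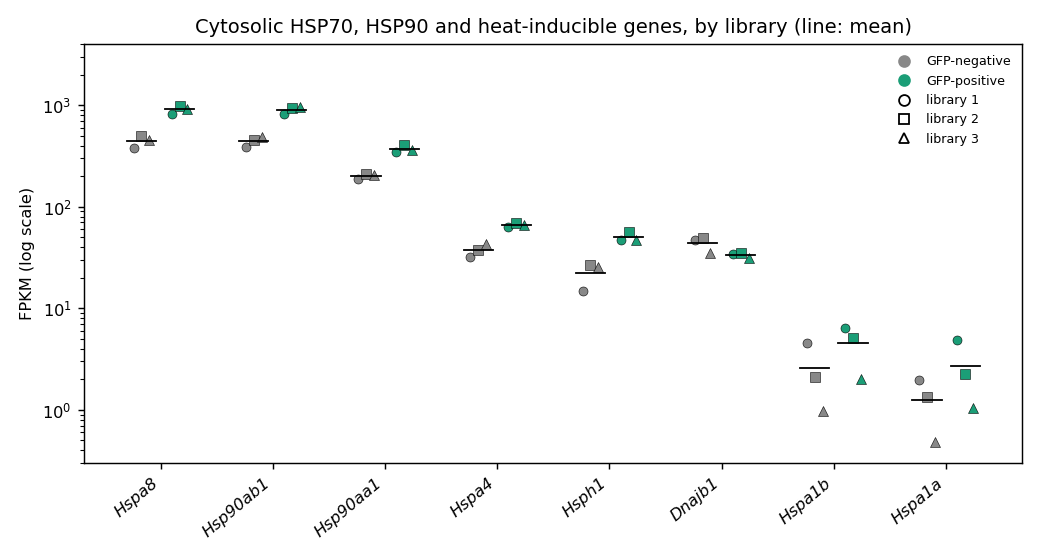
FPKM (y axis, log scale) of cytosolic HSP70 and HSP90 genes and of heat-inducible genes in each library, with the group mean as a line. Hspa8, Hsp90ab1, Hsp90aa1, Hspa4 and Hsph1 are separated by group, while Hspa1a and Hspa1b stay below 7 FPKM and overlap.

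The heat-inducible genes did not all pass the test. Of the 6 members of this class, Hsp90aa1 and Hsph1 rose, 3 did not pass the test, and Hspb1, the small heat shock protein HSP27, was not tested because it stood at 0 to 0.177 FPKM. Over all genes tested, 24.4% rose and 29.8% fell, 54.2% in either direction, so missed calls are not particular to this class. Hspa1a and Hspa1b, the strictly stress-induced HSP70 genes on chromosome 17, were low. In order of library number, Hspa1a stood at 1.95, 1.34 and 0.488 FPKM without GFP and at 4.88, 2.24 and 1.05 FPKM with GFP. Hspa1b stood at 4.61, 2.13 and 0.985 FPKM and at 6.43, 5.10 and 2.01 FPKM. In both groups library 1 was the highest and library 3 the lowest for each gene, and the groups overlapped. Their log2 fold changes of 0.79 ± 0.49 and 0.76 ± 0.54 did not pass (adjusted p = 0.207 and 0.266). With the replicate number as a block they passed with unchanged size (adjusted p = 0.0287 and 0.0167), and the authors' deposited table called both (q of 0.00201 and 0.000689). Leaving out a single library moved these changes between 0.32 (Hspa1a without GFP-positive library 1) and 1.22. The longest reading frames of the pair share 1890 bases, 97.98% of the longer frame, so the division of reads between them is uncertain.

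Dnajb1, the J protein known as HSP40 that is induced with them, stood at 47.3, 48.7 and 34.8 FPKM in GFP-negative and 34.4, 35.2 and 31.2 FPKM in GFP-positive libraries. GFP-negative library 3 lay within the GFP-positive range. The log2 fold change of -0.36 ± 0.15 missed the threshold (adjusted p = 0.065). It passed without GFP-negative library 3 (-0.51, adjusted p = 0.00575) and with the replicate block (adjusted p = 0.0313), and the authors' deposited table called it (q of 0.00847). Immediate early genes, which respond within minutes to handling of cells as well as to signals, had a mean log2 level of 4.39, 3.27 and 2.90 in GFP-negative libraries 1 to 3 and 2.96, 2.07 and 2.09 in GFP-positive libraries 1 to 3. These mean levels are over all 8 genes of the list, with Atf3, which was listed at 0 in every library and was not tested. Of the 7 tested, 1 (Egr1) fell and 0 rose, with a median log2 fold change of -1.77. Over all genes tested, 29.8% fell and 24.4% rose. The authors' deposited table called Egr1, Fos, Jun, Junb and Dusp1 (q of 0.00019 each) and Fosb (q of 0.00499), all with lower means in GFP-positive cells. Library 1 was thus the highest of each group here too, and the part of this in the levels of Hspa1a and Hspa1b was not tested. Neither tested heat shock factor passed, with Hsf1, the main activator of the heat shock response, at 12.7 ± 1.98 and 12.9 ± 1.78 FPKM and Hsf2 at 6.02 ± 0.635 and 5.89 ± 0.402 FPKM (adjusted p = 0.884 and 0.894).

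Every tested subunit of the cytosolic chaperonin rose in GFP-positive cells. The complex has 8 kinds of subunit, encoded by Tcp1, Cct2 to Cct5, Cct6a, Cct7 and Cct8, and all 8 passed the test without overlap between groups, with a median log2 fold change of 0.99. Among all genes tested, 24.4% rose, and 63.8% had no overlap between groups in either direction. Tcp1 (chr17:12915701-12925067), the subunit with the highest level per length, stood at 77.8, 110 and 120 FPKM in GFP-negative and 213, 227 and 227 FPKM in GFP-positive libraries (2.16-fold, log2 fold change 1.13 ± 0.16, adjusted p = 0.000624). Cct6a changed most, from 31.7, 48.9 and 53.2 to 98.2, 128 and 110 FPKM (2.51-fold, log2 fold change 1.35 ± 0.20). Cct4 changed least, from 64.0, 73.8 and 70.4 to 99.8, 118 and 113 FPKM (1.59-fold, 0.66 ± 0.12). Cct2 had a log2 fold change of 0.79, and Cct8, Cct7, Cct3 and Cct5 lay close together at 0.96 to 1.0. The adjusted p was at most 0.00155 among the 8.

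As shares of the summed subunit level of a library, 4 subunits were separated by group and 4 overlapped. Shares of a sum depend on each other, since a higher share of some subunits lowers those of others. No background over all genes was computed for such shares. Cct6a held a share of 0.0696 to 0.0829 in GFP-negative and 0.0961 to 0.110 in GFP-positive libraries, and Tcp1 0.171 to 0.187 and 0.195 to 0.210. The shares of Cct2 (0.172 to 0.182, then 0.153 to 0.156) and Cct4 (0.110 to 0.140, then 0.0986 to 0.102) were lower in GFP-positive cells, and those of Cct3, Cct5, Cct7 and Cct8 overlapped between groups. GFP-negative library 1 had the lowest level of each subunit. The summed level was 456 FPKM there, against 597 and 641 FPKM in the others of its group and 1012 to 1165 FPKM with GFP. Cct6b, a testis form, stood at or below 0.251 FPKM, and Cct8l1 at or below 0.584 FPKM.

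**Figure D3:**
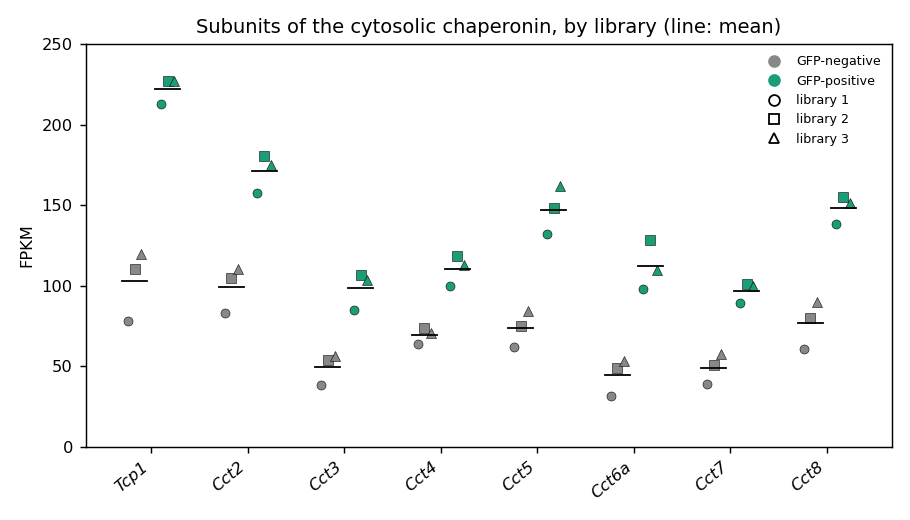
FPKM (y axis) of the 8 tested subunits of the cytosolic chaperonin in each library, with the group mean as a line. For each subunit the 3 GFP-positive libraries lie above the 3 GFP-negative libraries, with the widest gap in relative terms for Cct6a (2.51-fold).

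Cofactors of the chaperonin rose in part. Of 9 genes for prefoldin, which hands clients to the chaperonin, and for phosducin-like cofactors, 4 rose and 1 fell (median log2 fold change 0.43). Among all genes tested, 24.4% rose and 29.8% fell. Pfdn1, Pfdn6 and Pfdn4, prefoldin subunits, had log2 fold changes of 0.95, 0.76 and 0.68, and Pdcl, a phosducin-like protein, one of -0.57.

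The mitochondrial chaperonin and HSP70 rose, and Hspd1, the HSP60 chaperonin, had the largest increase of all tested members. It stood at 53.7, 85.3 and 112 FPKM in GFP-negative and 206, 257 and 243 FPKM in GFP-positive libraries (2.81-fold, log2 fold change 1.54 ± 0.25, adjusted p = 0.00117). Hspe1, its HSP10 lid, stood at 38.3, 61.6 and 75.9 FPKM and at 113, 158 and 152 FPKM (2.41-fold, 1.30 ± 0.25, adjusted p = 0.00289). The genes lie head to head (Hspd1 at chr1:55077835-55088243 on the minus strand, Hspe1 at chr1:55088132-55091307 on the plus strand) and overlap by 112 bases, and the Hspe1 window printed above lies across their joint start region. The ratio of Hspd1 to Hspe1 was 1.38 to 1.48 in GFP-negative and 1.60 to 1.83 in GFP-positive libraries, so Hspd1 was the more increased of the pair. A pseudogene copy, Hspe1-ps5, was listed at 4.37 to 16.9 FPKM, so the division of reads between it and Hspe1 is uncertain. Hspa9, the mitochondrial HSP70 (mortalin), stood at 30.5, 44.2 and 56.9 FPKM and at 94.2, 119 and 120 FPKM (2.53-fold, 1.36 ± 0.22, adjusted p = 0.00108).
For these 3 genes GFP-negative library 1 was the lowest and library 3 the highest of its group, and no group values overlapped.

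Of the mitochondrial J proteins, 3 rose and 4 did not pass the test. Dnaja3, also called TID1, which works with Hspa9, rose from 8.51, 9.32 and 8.99 to 14.6, 15.3 and 16.2 FPKM (1.72-fold, log2 fold change 0.75 ± 0.12, adjusted p = 0.00088), although the authors' deposited table did not call it (q of 0.0713), nor Dnajc19 (q of 0.141). Dnajc19, of the protein import motor, had a log2 fold change of 0.71 (adjusted p = 0.0113) and Dnajc11, of the inner membrane organising machinery, one of 0.52 (adjusted p = 0.0132). Without library 1 of both groups these calls of Dnajc19 and Dnajc11 were lost (0.62 and 0.48, adjusted p = 0.0823 and 0.0557), as in the authors' separately normalized 4-library table of libraries 2 and 3 of each group (0.65 and 0.39, adjusted p = 0.086 and 0.113). Dnajc11 was also lost without GFP-negative library 2 (0.46, adjusted p = 0.0527). Dnajc15 stood at 33.4 ± 2.58 and 28.9 ± 3.03 FPKM, a log2 fold change of -0.21 that did not pass, as did those of Dnajc4, Dnajc28 and Dnajc30. In all, 6 of the 10 mitochondrial members rose and 0 fell, where 24.4% of all genes tested rose and 29.8% fell. Trap1, the mitochondrial HSP90, which the naming rule leaves out, rose with a log2 fold change of 0.88.

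Endoplasmic reticulum members went in both directions. Hsp90b1, the HSP90 of this organelle known as GRP94, rose from 46.5, 52.7 and 66.9 to 84.8, 110 and 112 FPKM (1.84-fold, log2 fold change 0.88 ± 0.17, adjusted p = 0.00207). Hspa5, the HSP70 BiP, stood at 149, 72.5 and 84.8 FPKM in GFP-negative and 142, 110 and 113 FPKM in GFP-positive libraries. Library 1 was the highest of each group, the groups overlapped, and the log2 fold change of 0.31 ± 0.25 did not pass (adjusted p = 0.325). Without GFP-negative library 1 it did (0.62, adjusted p = 0.00891), as it did without library 1 of both groups (0.50, adjusted p = 0.0208) and in the 4-library table (0.49, adjusted p = 0.0245).

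All 5 members of the endoplasmic reticulum that fell were J proteins, as are all members of this class but Hspa5, Hspa13 and Hsp90b1. Dnajb9, also called ERDJ4, which recruits BiP to the stress sensor IRE1, had the largest decrease of all tested members on the log2(FPKM + 0.5) scale, from 20.3, 16.6 and 12.9 to 7.98, 5.76 and 4.49 FPKM (2.73-fold higher in GFP-negative cells, log2 fold change -1.39 ± 0.22, adjusted p = 0.00107). Dnajc3, known as P58IPK, an inhibitor of the stress kinase PERK, fell from 35.7, 39.3 and 33.3 to 20.6, 21.7 and 21.5 FPKM (-0.75 ± 0.11, adjusted p = 0.000688). Dnajc1, a membrane J protein, fell from 18.4, 17.4 and 18.7 to 10.8, 10.8 and 10.7 FPKM (-0.73, adjusted p = 0.000766). None of these 3 had overlapping groups. Dnajc14, of the membrane as well, had a log2 fold change of -0.70 and Dnajc16 one of -0.57. The call of Dnajc16 was lost in 6 alternatives, namely quantile normalization (-0.35), without library 1 of both groups (-0.43), in the 4-library table (-0.48), and without GFP-positive library 1 (-0.46), GFP-negative library 1 (-0.54) or GFP-negative library 3 (-0.55), with adjusted p up to 0.123. Dnajb11, a J protein of the lumen that delivers unfolded clients to BiP, stood at 16.0, 18.5 and 17.8 and at 20.3, 22.1 and 20.8 FPKM, without overlap but short of the threshold (log2 fold change 0.27, adjusted p = 0.0727).

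Of the 14 members of this organelle, 1 rose, 5 fell and 8 did not pass, with a median log2 fold change of -0.21. Over all genes tested 24.4% rose and 29.8% fell, so the share of these members that was called is not above the background. Hspa5, Hsp90b1 and Dnajc3, whose promoter windows hold the stress element printed above, thus comprised a gene without a call, a gene that rose and a gene that fell. The ratio of Dnajb9 to Hspa5 was 0.136 to 0.228 in GFP-negative and 0.0398 to 0.0560 in GFP-positive libraries. Of 14 other partners of organelle chaperones, 10 rose and 0 fell, among them Sdf2l1, a lumenal partner of J proteins (log2 fold change 1.55), Canx, the lectin chaperone calnexin (0.99), and Pdia4, a disulfide isomerase (0.98). Of 6 tested genes of the unfolded protein response, 0 rose and 2 fell: Eif2ak3, which encodes PERK (-1.06), and Xbp1, the transcription factor that IRE1 splices (-0.87).

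**Figure D4:**
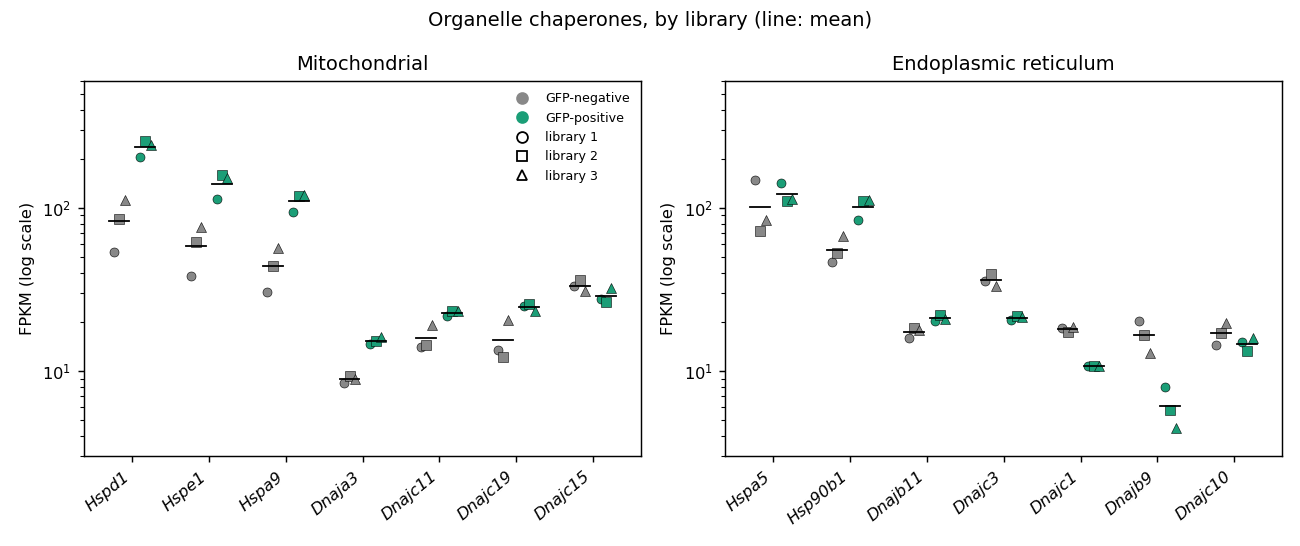
FPKM (y axis, log scale) of mitochondrial (left) and endoplasmic reticulum (right) members in each library, with the group mean as a line. Hspd1, Hspe1, Hspa9 and Hsp90b1 are higher in GFP-positive libraries, Dnajc3, Dnajc1 and Dnajb9 lower, and Hspa5 overlaps between groups.

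J proteins of the cytosol, nucleus and vesicles went both ways, with 6 of 18 tested higher and 6 lower (median log2 fold change -0.04). Among all genes tested, 24.4% were higher and 29.8% lower, so a split in both directions is not particular to these J proteins. Dnajc9, a histone chaperone, rose from 21.5, 24.8 and 36.5 to 49.8, 53.5 and 59.5 FPKM (1.97-fold, log2 fold change 0.99 ± 0.19, adjusted p = 0.00205). Dnajc2, a J protein of the ribosome exit known as MPP11, rose from 15.7, 17.6 and 22.9 to 29.5, 31.6 and 31.9 FPKM (0.73 ± 0.15, adjusted p = 0.003). Dnaja2, a main HSP70 partner in refolding, had a log2 fold change of 0.48 (adjusted p = 0.00982). Dnajc27, a small GTPase with a J domain, had one of 0.63 (adjusted p = 0.022), a call lost in 5 alternatives with adjusted p up to 0.091. Without GFP-negative library 1 or 2, or GFP-positive library 2 or 3, its value lay between 0.54 and 0.61. Dnajc21, which acts in ribosome assembly, and Dnajc8, a splicing factor, had log2 fold changes of 0.43 and 0.35, calls that were each lost in 7 alternatives (0.34 to 0.43 and 0.26 to 0.37). For both these included leaving out GFP-negative library 1 or 2 or GFP-positive library 2 or 3.

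Of the 6 lower ones, Dnajc5, the cysteine string protein of secretory vesicles, fell from 35.0, 39.6 and 32.7 to 19.9, 20.8 and 19.6 FPKM (log2 fold change -0.81 ± 0.11, adjusted p = 0.000563). Dnajc6, auxilin, which strips clathrin from vesicles, fell from 24.2, 33.5 and 24.3 to 15.6, 16.1 and 17.1 FPKM (-0.71, adjusted p = 0.00318). Dnajc13, of endosomes, had a log2 fold change of -0.39 (adjusted p = 0.016), lost without GFP-positive library 2 (-0.37, adjusted p = 0.0676), without library 1 of both groups (-0.37) and in the 4-library table (-0.37). The authors' deposited table did not call it (q of 0.167). Dnajb4, a close relative of Dnajb1, fell from 18.9, 24.2 and 18.8 to 9.30, 10.1 and 9.21 FPKM (-1.07 ± 0.14, adjusted p = 0.000365). Dnajc7, which binds both HSP70 and HSP90, fell from 90.9, 107 and 94.0 to 57.7, 57.5 and 69.9 FPKM (-0.66, adjusted p = 0.00228). Dnajb5 fell from 1.71 ± 0.601 to 0.532 ± 0.107 FPKM (-1.06, adjusted p = 0.0177). It passed the minimum through its GFP-negative libraries, and leaving out GFP-positive library 2 ended its call (-0.99, adjusted p = 0.0568) as did quantile normalization (-0.59, adjusted p = 0.17).

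Dnaja1, a main HSP70 partner and the J protein with the highest level per length, did not pass the test. It stood at 103, 128 and 96.6 FPKM in GFP-negative and 110, 110 and 103 FPKM in GFP-positive libraries, a log2 fold change of -0.01 ± 0.13 (adjusted p = 0.945). Dnajb6, which restrains protein aggregation, stood at 40.5 ± 2.12 and 38.9 ± 3.39 FPKM (adjusted p = 0.684). The summed level of the 19 tested J proteins outside organelles, relative to Hspa8 in the same library, was 1.33, 1.20 and 1.18 in GFP-negative and 0.602, 0.530 and 0.571 in GFP-positive libraries. The ratio of Dnaja1 to Hspa8 was 0.214 to 0.270 and 0.111 to 0.134. Even for Dnaja2, which rose, the ratio was lower, at 0.0690 to 0.0695 in GFP-negative and 0.0451 to 0.0495 in GFP-positive libraries. Without Dnajb1, the summed level of these J proteins was 461 to 542 FPKM in GFP-negative and 458 to 497 FPKM in GFP-positive libraries. The lower ratio of the sum thus mainly restates the higher level of Hspa8. A ratio within a library does not depend on a scaling factor between libraries, and it shows unequal change only. The ratios were not computed under quantile normalization, where the log2 fold change of Hspa8 was 0.39.

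**Figure D5:**
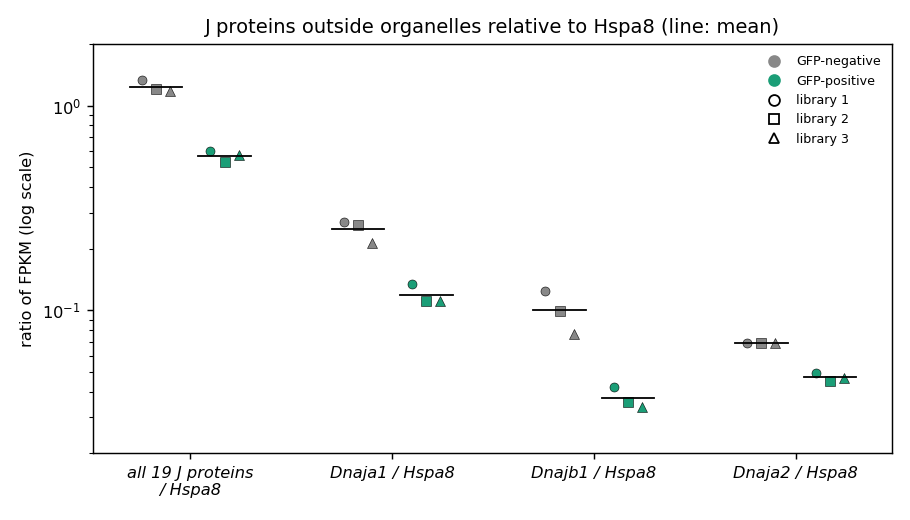
Ratio of FPKM to that of Hspa8 in the same library (y axis, log scale) for the sum of the 19 tested J proteins outside organelles and for Dnaja1, Dnajb1 and Dnaja2, with the group mean as a line. In each case the 3 GFP-positive libraries lie below the 3 GFP-negative libraries, at 0.530 to 0.602 against 1.18 to 1.33 for the sum.

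Of the small and tissue-restricted heat shock proteins, 4 were tested and 0 passed (limma), where 54.2% of all genes tested were called. Hspb11, a subunit of the transport machinery of cilia, was the most abundant, at 17.5 ± 1.04 and 16.9 ± 1.31 FPKM. Hspb6 stood at 3.27 ± 0.789 and 3.27 ± 0.794 FPKM, Hspb9 at 1.35 ± 0.298 and 0.765 ± 0.510 FPKM, and Hspa2, an HSP70 of the testis, at 1.52 ± 1.01 and 1.05 ± 0.213 FPKM. At an unadjusted p of 0.05 the count among these 4 was also 0. The standard errors of Hspb6, Hspb9 and Hspa2 were 0.23 to 0.37 on the log2 scale, so their missed calls do not show equal levels. The 18 members that were not tested had means of at most 0.850 FPKM. Besides Hspb1, Cct6b and Cct8l1, they were Hspa1l, Hspa12a, Hspa12b, Hspb7, Dnaja4, Dnajb3, Dnajb7 and Dnajb13, and 7 listed at 0 in every library: Hspb2, Hspb3, Hspb8, Dnajb8, Dnajc22, Dnajc5b and Dnajc5g. Such a 0 can be a failed estimate.

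Cochaperones of HSP70 and HSP90 outside the naming rule were higher more often than lower. Of 24 tested, 13 rose and 2 fell, with a median log2 fold change of 0.38. Among all genes tested, 24.4% rose and 29.8% fell. Bag3, counted among those that rose, passed the minimum through its GFP-positive libraries (0.710 ± 0.307 FPKM without GFP and 1.79 ± 0.268 FPKM with GFP). Ptges3, the p23 cochaperone that holds HSP90 closed, rose from 60.2, 95.4 and 113 FPKM in GFP-negative to a mean of 224 ± 28.3 FPKM in GFP-positive cells (log2 fold change 1.35). Fkbp4 and Fkbp5, immunophilins of steroid receptor complexes, had log2 fold changes of 1.27 and 1.20. Cdc37l1, a relative of the kinase-loading factor Cdc37, and Unc45a, a myosin chaperone, fell by 1.0 and 0.99 on the log2 scale.

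Some members share exonic bases with a gene on the opposite strand, and the sources used here do not state whether counting was strand-specific. Among called members the shared part was 12.5% for Cct6a (with Psph), 11.4% for Tcp1 (with Acat3), 10.3% for Hsp90b1 (with 1810014B01Rik) and 17% for Dnajc14 (with Ormdl2), and lower for the others. For tested members without a call, it was 19% for Hspa1a (with Gm20481) and 26.2% for Dnajc30 (with Bud23).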

How the data were processed

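RNA of DN4 thymocytes with and without GFP was sequenced after rRNA depletion, per the labels' protocols. The authors deposited FPKM values per gene and library, and q-values of their own comparison, per the file headers. TopHat2, Cuffdiff and the build mm10 are listed in the submitters' processing notes, and the sources used here give no versions, settings, annotation or strand setting. From the 6-library table, 24 genes whose test status was HIDATA were left out, and genes with a mean of at least 1 FPKM over the 6 libraries were kept (11465 of 41386). The values were tested as log2(FPKM + 0.5) with limma 3.58.1 in R 4.3.3 (trend and robust options), with Benjamini-Hochberg adjustment and a threshold of 0.05. Fold changes on this scale understate those of low genes. The code was tested on simulated data. Python 3.11.15 and pandas 2.3.3 made the tables. Positions are from GENCODE M21 (GRCm38), in which all 84 members were found, and promoters are from RefSeq.

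The rule for named genes took all heat-inducible and chaperonin members, up to 4 per direction by size and the 2 most abundant in each other class, and the 5 highest and lowest. Other pathway lists gave up to 3 per direction. Further members are named to account for the calls and were chosen after their values were seen. The members and lists were chosen with earlier results of these data known. Alternatives were pseudocounts of 0.1 and 1, no filter and a minimum of 5 FPKM, quantile and upper quartile scaling, limma without trend, a replicate block, leaving out each library, the authors' 4-library table and, added after seeing the data, leaving out library 1 of both groups. A deposited table without values per library was not used. Some marker lists are not reported here.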

Additional observations from a re-analysis of the deposited data

How the results depend on the processing

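Of the 40 called members, 31 (21 higher and 10 lower) kept their call in each of the 16 alternatives in which they were tested. Leaving out 1 library gave 23 to 28 members higher and 11 to 13 lower. The median log2 fold change over members, 0.18, became 0.46 with a minimum mean of 5 FPKM, 0.33 under quantile normalization and 0.27 without library 1 of both groups, a setting chosen after seeing the data. Quantile normalization also moved the constitutive cytosolic median from 0.81 to 0.34 and that of the endoplasmic reticulum from -0.21 to -0.0381. It gave 3494 genes higher and 2846 lower, against 2797 and 3419, and the median of all genes moved from -0.08 to 0.06. Leaving out 1 library moved the chaperonin median between 0.83 and 1.10 and the heat-inducible median between 0.42 and 1.20. Of the 42 members that the rule for named genes took, 4 without a call changed sign. Their main log2 fold changes were -0.0124 for Dnaja1, 0.0001 for Hspb6, -0.0485 for Hspb11 and -0.28 for Hspa2. Dnaja1 was at 0.0361 with upper quartile scaling and between -0.096 and 0.11 when 1 library was left out. Hspb6 was at -0.0001 with a pseudocount of 1, -0.0725 in the 4-library table and -0.0265 without library 1 of both groups, and between -0.16 and 0.15 when 1 library was left out. Hspa2 was at 0.15 under quantile normalization and between -0.49 and 0.11 without 1 library, and Hspb11 at 0.0243 and between -0.10 and 0.0081. The causes were not tested.

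Same-numbered libraries deviated from their group means with correlations of 0.094, -0.0209 and 0.061, so the numbers were not taken to pair them, and not every library correlated best with its own number. The replicate block gave 29 members higher and 14 lower, and 2929 and 3461 genes overall. With 3 libraries a group and no read depth, the precision of members near 1 FPKM is unknown.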
